A study of Homo sapiens with 6 samples.

Results

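Aminoacyl-tRNA synthetases, the enzymes that attach each amino acid to its tRNA, were measured in HT-1080, a cell line grown from a human fibrosarcoma. The cells spent 48 h in 1% DMSO with 20 μM PhenDC3 (3 libraries) or in 1% DMSO alone (3 libraries). PhenDC3 is a ligand of G quadruplexes, stacked structures of guanine-rich DNA and RNA that it stabilizes. The members were taken by gene symbol from the deposited table of mRNA sequencing, 40 of the 22925 genes it lists. They comprise 20 genes of cytosolic synthetases, 17 of mitochondrial synthetases (names ending in 2) and 3 genes of scaffold proteins that hold cytosolic synthetases together. AIMP2 ends in 2 but encodes such a scaffold protein and was counted as one, and GARS and KARS, which each serve both compartments, were counted once as cytosolic. All 40 members were above the minimum mean for testing. Nothing in the labels ties the 3 libraries of a group to different cultures, and p-values therefore cover the spread among libraries alone, which may be technical.

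Synthetases fall into 2 structural families, class I and class II, according to the fold of the domain that activates the amino acid. In animals a part of the cytosolic enzymes is bound in a large multisynthetase complex, built on the scaffold proteins AIMP1, AIMP2 and EEF1E1 (also called AIMP3), while the rest work outside it. Mitochondria charge their own tRNAs with enzymes that are encoded in the nucleus, made in the cytosol and imported. Many cytosolic synthetase genes are known targets of ATF4, the transcription factor of the response to amino acid shortage and related stresses.

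Whole reads recovered from the table numbered 12574952 to 14292987 in the DMSO libraries and 7371056 to 9386691 in the PhenDC3 libraries, so depth differs with treatment. Of 7 mesenchymal markers 5 could be tested, with VIM, FN1, CDH2 and COL4A1 lower and COL1A1 higher, and the list summed to between 37893 and 40910 normalized counts in the DMSO libraries and between 21424 and 21581 in the PhenDC3 libraries. COL1A2 and THY1 were near 0. Of 10 markers of epithelial, endothelial or blood cells 3 were listed, with CD68 and ELF3 higher and CLDN4 not passing, at sums of 64.8 to 80.2 in DMSO and 82.7 to 102.7 in PhenDC3. ELF3 averaged 0.26 normalized counts in DMSO and 10.6 in PhenDC3, so it reached the minimum mean for testing through the PhenDC3 libraries alone. CD68 was also low, at 5.98 and 15.4, and CLDN4, at 66.8 and 68.5, made up most of these sums. The part of all these markers in the results below was not tested. In bulk RNA, fewer cells of a kind and less RNA per cell cannot be told apart.

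Most synthetase genes were lower in PhenDC3, in both compartments. Of the 40 members, 28 fell and 2 rose (limma, adjusted p under 0.05 over all 16482 tested genes), where 30.4% of all tested genes fell and 29.2% rose. Among the 9834 tested genes with a mean of 100 or more, the range that holds most members, 38.5% fell. In the cytosol 15 of 20 genes fell and AARS rose. In mitochondria 13 of 17 fell and CARS2 rose. Of the 3 scaffold genes 0 passed in limma, edgeR or DESeq2, and 0 had an unadjusted p under 0.05 in limma. The median log2 fold change was -0.36 for cytosolic and -0.39 for mitochondrial synthetases and -0.02 for the scaffold genes, against -0.02 for all tested genes. The falls were mostly moderate. Those of 1.5-fold or more numbered 9 among the members, while 15.7% of all tested genes fell that far. Among the members reported singly, YARS2 fell by 2-fold or more. Of all tested genes 6.46% fell by 2-fold or more, and no count over all 40 members is set beside that share. In 27 members every PhenDC3 library lay below every DMSO library, as in 32.6% of tested genes.

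**Figure D1:**
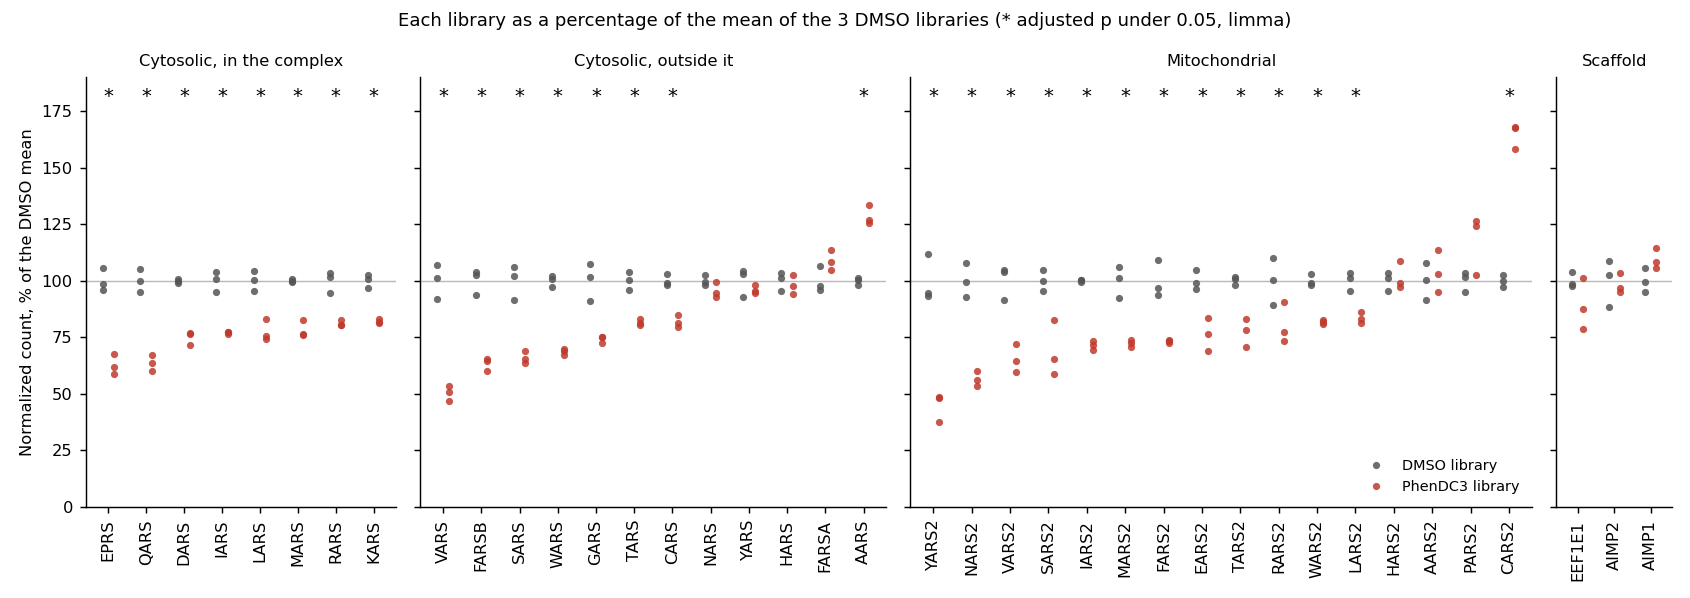
Normalized count of 39 members in each library, as a percentage of the mean of its 3 DMSO libraries (y axis), with grey points for DMSO, red points for PhenDC3 and an asterisk where limma's adjusted p is under 0.05. In the multisynthetase complex all 8 genes have their red points below the grey ones, as 32.6% of all tested genes would. AARS and CARS2 are the members whose red points lie above and pass the test.

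Summed over the 20 cytosolic genes, normalized counts (reads divided by the authors' size factor for each library) came to 53266 ± 1292 in DMSO and 42745 ± 257 in PhenDC3 (mean ± SD, n = 3), or 80.2% of the DMSO level. The 17 mitochondrial genes summed to 8180 ± 95.6 and 6182 ± 163, or 75.6%. Genes with high counts weigh most in that sum, IARS2 alone giving 2142 in DMSO and 1532 in PhenDC3, where the median DMSO mean of the 17 was 316. The 3 scaffold genes summed to 1205 ± 63.5 and 1241 ± 48.8. The libraries of the groups did not overlap in the first and the second sum and did in the third.

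All 8 synthetase genes of the multisynthetase complex fell, with a median log2 fold change of -0.37. The share that fell was 30.4% of all tested genes and 38.5% of those with a mean of 100 or more. EPRS, whose protein joins the glutamate and the proline enzyme in a single chain, had 3412, 3669 and 3318 normalized counts in the DMSO libraries and 2045, 2343 and 2145 in the PhenDC3 libraries. Its fall to 62.8% of the DMSO level was the deepest of the complex (limma, log2 fold change -0.67, SE 0.07, adjusted p = 2.88e-08). QARS, the glutamine enzyme, followed with 2001, 2104 and 2218 in DMSO and 1413, 1271 and 1337 in PhenDC3. Here too no PhenDC3 library reached the lowest DMSO library (limma, log2 fold change -0.65, SE 0.07, adjusted p = 4.7e-08). DARS, for aspartate, went from 1961 ± 18.6 to 1469 ± 57.7, or 74.9%. IARS, for isoleucine and the member with the highest count, went from 4677 ± 214 to 3604 ± 26.7, or 77.1%. The other 4 genes lay close together, at 77.6% for LARS (leucine), 78.4% for MARS (methionine), 81.3% for RARS (arginine) and 82.1% for KARS (lysine). The adjusted p of these last 4 was 0.000312 or less in limma.

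The scaffold genes of the same complex did not pass. AIMP1 had 668.5, 701.3 and 744.7 normalized counts in DMSO and 744.4, 762.2 and 806.9 in PhenDC3, so the groups overlapped narrowly (limma, log2 fold change 0.13, 95% interval -0.02 to 0.28, adjusted p = 0.132). Without DMSO replicate 3 it passed as higher (log2 fold change 0.17, adjusted p = 0.034). AIMP2 was at 266.4 ± 27.9 and 262.2 ± 12 and EEF1E1 at 233.2 ± 8.31 and 207.9 ± 26.6. Their 95% intervals on the log2 scale were -0.22 to 0.19 and -0.39 to 0.05, so that of EEF1E1 still holds falls as large as those of most synthetases of the complex, and that of AIMP2 none. The difference between scaffold and synthetase genes was not tested. AIMP2 shares 532 exonic bases, 28.9% of its exonic length, with EIF2AK1 on the opposite strand, which is more abundant and fell from 1728 to 1071.

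Outside the complex 7 of 12 cytosolic genes fell, and AARS rose, beside 30.4% and 29.2% of all tested genes. VARS, for valine, fell most among cytosolic genes, with 2553, 2309 and 2689 normalized counts in DMSO and 1342, 1179 and 1278 in PhenDC3 (limma, log2 fold change -0.99, SE 0.07, adjusted p = 2.79e-10). Its PhenDC3 libraries averaged 50.3% of the DMSO level. SARS, for serine, went from 1805 ± 134 to 1191 ± 46.7, or 66.0%, and WARS, for tryptophan, from 1887 ± 47.1 to 1297 ± 26.7, or 68.8%. GARS, which makes glycyl-tRNA for the cytosol and for mitochondria, had 3433, 3820 and 4034 in DMSO and 2726, 2833 and 2824 in PhenDC3. It was thus lower in every PhenDC3 library, at 74.3% of the DMSO level. TARS (threonine) and CARS (cysteine) fell least, to 81.7% and 81.9%.

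The genes for the 2 subunits of the cytosolic phenylalanine enzyme moved apart. FARSB, the beta subunit, had 1406, 1565 and 1540 normalized counts in DMSO and 903.0, 972.1 and 982.7 in PhenDC3 (limma, log2 fold change -0.66, SE 0.07, adjusted p = 7.29e-08). FARSA, the alpha subunit, had 1816, 1843 and 2012 in DMSO and 2144, 1981 and 2051 in PhenDC3 (limma, log2 fold change 0.12, SE 0.06, adjusted p = 0.104). On the log2 scale the ratio of FARSB to FARSA was -0.37, -0.24 and -0.39 in the DMSO libraries and -1.25, -1.03 and -1.06 in the PhenDC3 libraries, without overlap. That shift of -0.78 had an exact two-sided permutation p of 0.1, the smallest that 3 against 3 libraries can give, and the pair was picked after its values were seen. Without DMSO replicate 3 FARSA passed as higher (log2 fold change 0.17, adjusted p = 0.00924).

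AARS, the alanine enzyme, was the cytosolic gene that rose. It had 2540, 2483 and 2555 normalized counts in DMSO and 3373, 3172 and 3207 in PhenDC3. All PhenDC3 libraries were above all DMSO libraries, on average 1.29-fold (limma, log2 fold change 0.36, SE 0.06, adjusted p = 2.11e-05). NARS (asparagine), YARS (tyrosine) and HARS (histidine) did not pass. NARS was at 3464 ± 77.3 and 3313 ± 118, YARS at 2388 ± 151 and 2295 ± 39.6 and HARS at 1244 ± 51.5 and 1222 ± 52.9. Their groups overlapped, and the 95% intervals on the log2 scale reached no lower than -0.19 in NARS and YARS and -0.16 in HARS.

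By structural class, 16 of 18 class I genes fell and 1 rose, while of 18 class II genes 11 fell and 1 rose, with EPRS, which joins both classes, and the scaffold genes left out. The medians on the log2 scale were -0.37 for class I and -0.33 for class II. Of all tested genes 30.4% fell and 29.2% rose. The counts of lower genes kept this order of the classes in each compartment. They were 8 of 9 class I against 6 of 10 class II genes in the cytosol and 8 of 9 against 5 of 8 in mitochondria. The medians kept it in the cytosol alone, at -0.37 for class I and -0.29 for class II. In mitochondria they were -0.39 and -0.41. The difference between the classes was not tested.

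The falls of mitochondrial genes spanned a wide range of sizes. YARS2, for tyrosine, had 339.3, 344.9 and 407.5 in DMSO and 137.3, 175.7 and 177.1 in PhenDC3 (limma, log2 fold change -1.16, SE 0.11, adjusted p = 2.47e-08). NARS2, for asparagine, had 302.7, 282.2 and 328.2 in DMSO and 163.3, 171.2 and 182.4 in PhenDC3. As with YARS2, the groups were well separated (limma, log2 fold change -0.82, SE 0.10, adjusted p = 5.33e-07). VARS2 (valine) fell to 65.5% of the DMSO level and IARS2 (isoleucine), the mitochondrial gene with the highest count, from 2142 ± 12.4 to 1532 ± 39.4, or 71.5%. VARS2 shares 1858 exonic bases with GTF2H4 on the same strand, a gene listed at 9.79 normalized counts in DMSO.

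The other mitochondrial genes that fell ranged from SARS2, at 75.8 normalized counts in DMSO, to LARS2, at 480.2. MARS2 (methionine), EARS2 (glutamate), TARS2 (threonine) and LARS2 (leucine) fell to between 72.4% and 83.7% of the DMSO level, with adjusted p between 0.00112 and 0.00878 in limma. LARS2 missed the threshold without DMSO replicate 2 (adjusted p = 0.0506). SARS2, for serine, had 72.4, 75.8 and 79.3 normalized counts in DMSO and 49.7, 62.5 and 44.6 in PhenDC3 (limma, adjusted p = 0.00681). FARS2, the single-chain mitochondrial phenylalanine enzyme, had 93.4, 96.7 and 109.0 in DMSO and 73.4, 72.9 and 72.2 in PhenDC3 (limma, adjusted p = 0.00738). Neither SARS2 nor FARS2 passed in the authors' deposited table, at an adjusted p of 0.055 and 0.0637. WARS2, for tryptophan, went from 147.8 ± 3.98 to 120.6 ± 1.25 (limma, adjusted p = 0.0294), and the authors' deposited table gives it 0.154. It lost its call without DMSO replicate 1 (adjusted p = 0.0661), DMSO replicate 2 (0.102) or PhenDC3 replicate 3 (0.070). RARS2, for arginine, was the gene that fell with overlapping libraries, at 427.3, 526.6 and 479.3 in DMSO and 369.2, 433.2 and 350.3 in PhenDC3 (limma, adjusted p = 0.00812). Its call was lost without DMSO replicate 2 (adjusted p = 0.0641), without PhenDC3 replicate 3 (0.0611) or with no variance trend (0.0693). In the authors' deposited table, lower genes numbered 15 among cytosolic and 10 among mitochondrial synthetases, where 19.3% of its genes with an adjusted p were.

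CARS2, which charges mitochondrial tRNA with cysteine and is also known to make cysteine persulfides, rose more than any other member. It had 536.2, 522.7 and 550.3 normalized counts in DMSO and 849.7, 900.7 and 897.4 in PhenDC3, a clear separation at 1.65-fold (limma, log2 fold change 0.72, SE 0.07, adjusted p = 3.36e-08). HARS2 (histidine), AARS2 (alanine) and PARS2 (proline) did not pass. HARS2 was at 440.4 ± 17.9 and 448.1 ± 27.0 and AARS2 at 312.8 ± 25.9 and 324.8 ± 28.7. PARS2, the lowest member, had 62.3, 66.5 and 67.6 in DMSO and 82.8, 67.0 and 81.3 in PhenDC3, and its 95% interval of -0.08 to 0.53 on the log2 scale is the widest of these 3.

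For most amino acids the cytosolic and the mitochondrial enzyme are encoded by separate genes, and 18 such pairs were compared by the log2 ratio of the mitochondrial to the cytosolic gene in each library, EPRS and FARS2 each entering 2 pairs. In 6 pairs the ratio was lower in every PhenDC3 library than in any DMSO library, in 6 it was higher in every one, and in 6 the groups overlapped. Among single tested genes 32.6% were lower and 31.5% higher without overlap, 64.1% in either direction. The share for ratios of other gene pairs was not computed, so these counts do not set the synthetases apart. The shift was largest for tyrosine, where the log2 ratio of YARS2 to YARS was -2.70, -2.83 and -2.61 in DMSO and -4.08, -3.68 and -3.68 in PhenDC3, a difference of -1.10. For cysteine it went the other way, with CARS2 to CARS at -1.58, -1.63 and -1.61 in DMSO and -0.71, -0.56 and -0.54 in PhenDC3, a difference of 1.00. Asparagine (NARS2 to NARS, -0.75) and proline (PARS2 to EPRS, 0.90) also shifted without overlap. Histidine, arginine, serine and threonine were among the overlapping pairs, with differences of 0.05, -0.02, 0.06 and -0.08. Each pair without overlap had an exact two-sided permutation p of 0.1, the smallest possible here, and 0.15 after Benjamini-Hochberg adjustment over the 18 pairs, so no pair could pass the threshold. In 11 pairs both genes fell, which in part restates the calls of single genes given above. The share of other gene pairs with both lower was not computed.

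**Figure D2:**
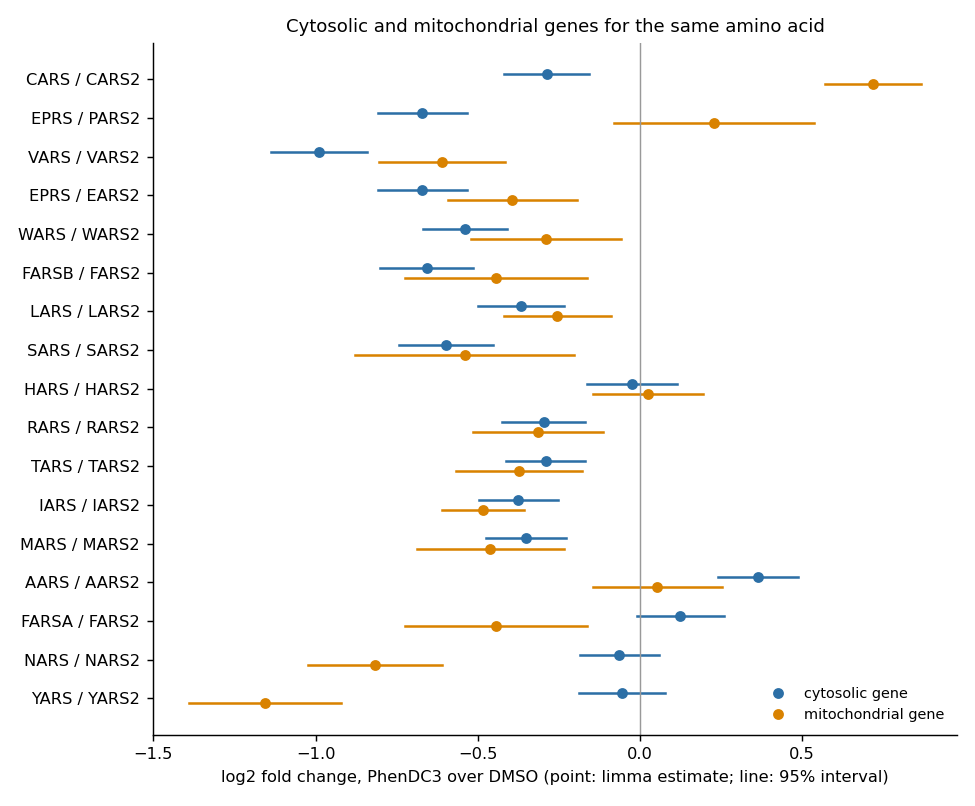
Log2 fold change of PhenDC3 over DMSO (x axis) for the cytosolic gene (blue) and the mitochondrial gene (orange) of 17 of the pairs (y axis), with points for limma's estimate and lines for its 95% interval, ordered by the difference between them. YARS2 and NARS2 lie well to the left of their cytosolic partners at the bottom, and CARS2 and PARS2 to the right at the top.

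Levels were compared between genes as normalized counts per kilobase of the longest protein-coding transcript in GENCODE 29. In DMSO the 20 cytosolic genes ranged from 356.2 per kb (HARS) to 1428 per kb (GARS), with a median level of 788.0. The mitochondrial genes ranged from 27.9 per kb (PARS2) to 601.7 per kb (IARS2), with a median level of 105.0, and IARS2 lay within the cytosolic range. The scaffold genes lay below every cytosolic gene and within the mitochondrial range, AIMP1 at 272.6 ± 14.8, AIMP2 at 217.5 ± 22.7 and EEF1E1 at 216.5 ± 7.72 per kb, the last 2 not separated beyond their spread. At the top, GARS at 1428 ± 116 and MARS at 1383 ± 9.67 per kb were likewise within their spread. Which transcripts the authors counted over is not stated, so these levels depend on the transcript chosen.

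**Figure D3:**
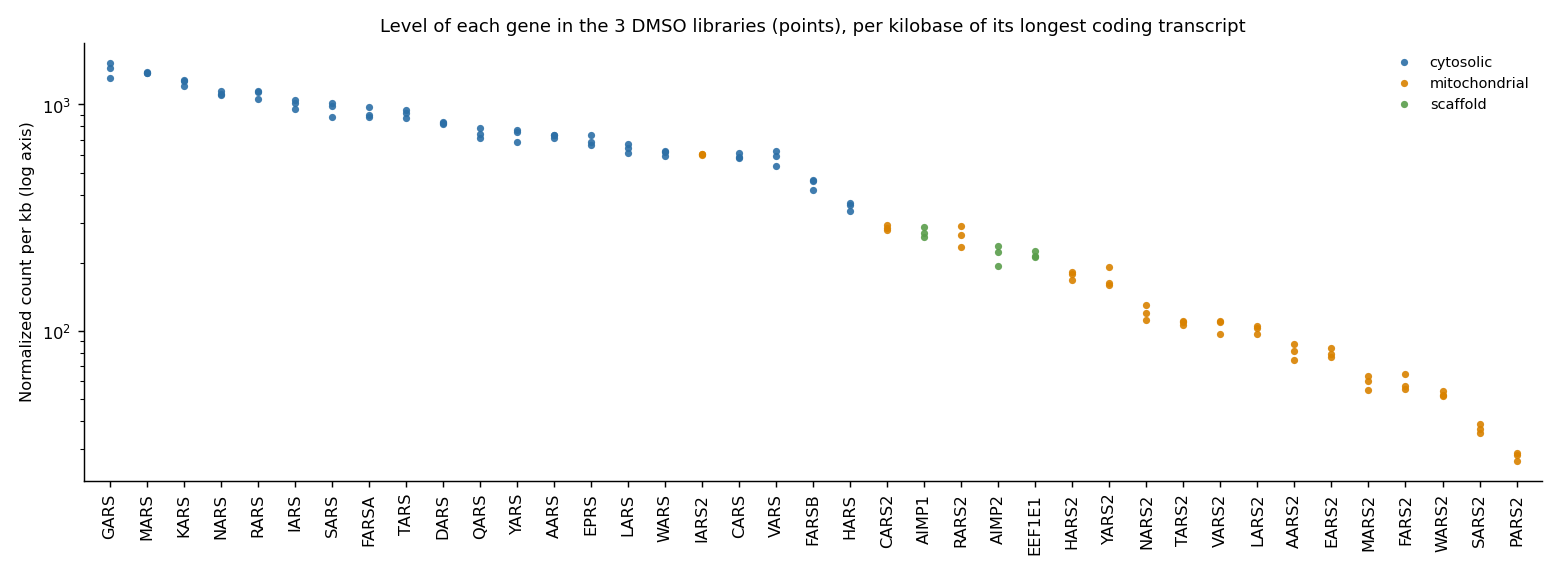
Normalized count per kilobase on a log axis (y) for 39 members (x) in the 3 DMSO libraries (points), in blue for cytosolic, orange for mitochondrial and green for scaffold genes. The cytosolic genes fill the left side from 1428 down to 356.2 per kb, with IARS2 among them, and PARS2 at 27.9 per kb stands at the right end.

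The promoters were searched because many members moved together. RefSeq promoter windows on GRCh38.p14, from 250 bases before to 50 bases after each gene's start, matched 33 members and 12705 genes of the table. The others, such as LARS and VARS, had no entry. The C/EBP-ATF response element, the composite site that ATF4 binds with a C/EBP partner, was sought on both strands as TGATGNAA. It was found in 7 of 33 members (21.2%), and in 1.97% of all windows. Of these members 6 were cytosolic, of 16 with a window, and all 6 held the form TGATGCAA, which 0.551% of all windows hold. The matching stretches are printed 5′ to 3′ along the gene's strand, and the bases around the match were not compared. The match, in capitals, was fixed by the search in all letters but N. It stands on the gene's own strand in NARS and YARS2 and on the opposite strand, so printed as its complement, in the others.
IARS (chr9:92293683-92293730, minus strand): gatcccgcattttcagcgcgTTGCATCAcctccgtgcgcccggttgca
MARS (chr12:57488044-57488091, plus strand): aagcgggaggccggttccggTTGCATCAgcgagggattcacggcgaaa
TARS (chr5:33440947-33440994, plus strand): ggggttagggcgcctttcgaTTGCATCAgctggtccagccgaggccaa
CARS (chr11:3057398-3057445, minus strand): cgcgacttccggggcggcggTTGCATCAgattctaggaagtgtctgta
NARS (chr18:57621807-57621842, minus strand): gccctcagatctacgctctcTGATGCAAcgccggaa
AARS (chr16:70289666-70289713, minus strand): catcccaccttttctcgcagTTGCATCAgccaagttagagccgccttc
YARS2 (chr12:32756067-32756114, minus strand): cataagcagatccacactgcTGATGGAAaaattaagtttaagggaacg

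In IARS, MARS, TARS, CARS and NARS the match lies within 25 bases of the annotated start, a distance chosen after the positions were seen, and 0.401% of all windows have a match that near. In AARS and YARS2 it lies further upstream, beginning at positions -187 and -197 from the start. The members with the match did not move alike. Of the 6 cytosolic ones IARS, MARS, TARS and CARS fell, NARS did not pass and AARS rose, with a median log2 fold change of -0.29 and a range from -0.37 to 0.36. Of the 10 cytosolic members without it 8 fell and none rose, HARS and FARSA not passing, with a median of -0.48. The difference between members with and without the match was not tested. A match is a description of these letters and not a bound site.

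G quadruplex motifs were sought in the same windows because PhenDC3 binds such structures. A match needed 4 runs of G, each at least 3 long, separated by 1 to 7 bases of any kind, G included, on either strand, so that a long run of G can supply several runs and the bases between them. It was found in 9 of 33 members (27.3%) and in 33.4% of all windows. Members with it were SARS, WARS, FARSA and AARS in the cytosol, IARS2, MARS2, FARS2 and LARS2 in mitochondria, and the scaffold gene EEF1E1. In the cytosol 2 of 4 with the motif and 10 of 12 without it fell, and in mitochondria 4 of 4 and 7 of 10, and these differences were not tested. The stretches of 4 members are shown, from the gene that rose (AARS), a cytosolic gene that fell (SARS) and 2 mitochondrial genes that fell (IARS2 and LARS2), with all overlapping matches in capitals. In AARS the G runs are on the gene's own strand, and in the other 3 they are on the opposite strand, so runs of C are printed. The AARS match begins at position -250, the edge of the window, so no bases before it are shown and it may extend further.
AARS (chr16:70289719-70289756, minus strand): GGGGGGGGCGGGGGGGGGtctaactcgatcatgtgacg
SARS (chr1:109213768-109213849, plus strand): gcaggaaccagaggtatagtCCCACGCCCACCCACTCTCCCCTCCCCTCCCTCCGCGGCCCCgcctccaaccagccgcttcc
IARS2 (chr1:220094040-220094132, plus strand): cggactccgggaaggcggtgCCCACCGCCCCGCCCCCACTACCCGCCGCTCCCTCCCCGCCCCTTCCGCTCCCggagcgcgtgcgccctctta
LARS2 (chr3:45388497-45388557, plus strand): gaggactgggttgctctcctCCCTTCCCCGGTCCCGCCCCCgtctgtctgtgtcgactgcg

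Other motifs were searched on both strands of these windows. CCAAT was present in 18 of 33 members (54.5%) and in 35.9% of all windows. The E-box CACGTG was present in 4 members (12.1%), IARS, MARS2, EARS2 and CARS2, and in 9.54% of all windows. The site of nuclear respiratory factor 1, a regulator of nuclear genes for mitochondria, sought on its palindromic core, was present in MARS2 and in 2.16% of all windows. GC content of the members' windows had a median of 62.0%, against 64.7% for all windows.

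Several members start head to head with another gene, in GENCODE 29. There were 15 such pairs of starts on opposite strands within 1000 bases, HARS and HARS2 being a pair of members, and in this pair neither gene passed. In 4 pairs both genes fell, in 4 they passed in opposite directions, in 5 the member passed and its neighbour did not, and in 2 neither passed. Of all tested genes 30.4% fell and 29.2% rose, so 59.6% passed in either direction. Shares for other head-to-head pairs were not computed. RARS2 starts 64 bases from ORC3, a subunit of the replication origin complex, which fell from 367.1 ± 10.6 to 104.0 ± 18.1 normalized counts, a log2 fold change of -1.82 beside -0.31 for RARS2. Pairs with both genes lower also included DARS with DARS-AS1 and WARS with WDR25. In contrast, EARS2 fell while UBFD1 rose from 1146 ± 48.3 to 1554 ± 54.3. The starts of these 2 genes are 369 bases apart, and their exons share 370 bases. KARS fell and TERF2IP rose, WARS2 fell and AL359915.2 rose, and AARS rose while DDX19B fell. Exons of 20 members overlap those of another gene in the table. Among them are DARS, EARS2, HARS, KARS, WARS and WARS2 with the neighbours named above. No source says whether the counting used strand, so reads in shared bases may have been lost or assigned to either gene. MARS shares 519 exonic bases on the opposite strand with ARHGAP9, which fell to 14.7 normalized counts at a log2 fold change of -2.87, and 355 with DDIT3, which encodes the stress factor CHOP and rose from 103.9 to 607.8 normalized counts.

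The rest of the tRNA pathway was divided. Of 90 genes of tRNA making, processing, modification and use, 32 fell and 22 rose, with a median log2 fold change of -0.09. The shares of all tested genes were 30.4% and 29.2%, as above. RNA polymerase III, which transcribes tRNA genes, and its factors had 10 of 20 higher and 6 lower. GTF3C4, a subunit of the factor TFIIIC, rose from 872.0 ± 26.7 to 1376 ± 44.7 normalized counts. POLR3B and POLR3G, subunits of the polymerase, fell to 265.9 ± 21.8 and 225.8 ± 15.3 from 421.4 ± 12.6 and 356.7 ± 19.8. tRNA end processing, splicing and export had 8 of 22 lower and 0 higher in limma (7 lower and 0 higher in edgeR and in DESeq2, and 0 higher at an unadjusted p under 0.05 in limma), among them TSEN15, of the splicing endonuclease, from 767.1 ± 32.7 to 360.5 ± 4.49, and POP7, of RNase P, from 365.4 ± 48.0 to 208.9 ± 5.65.

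tRNA modification had 10 of 34 genes higher (29.4%) and 12 lower (35.3%), near the 29.2% and 30.4% of all tested genes. TRMT61A, of the enzyme that methylates an adenosine of tRNA, rose from 196.7 ± 30.8 to 717.3 ± 26.6, a log2 fold change of 1.87 (limma, adjusted p = 2.92e-12). DUS3L, which makes dihydrouridine, rose from 291.8 ± 3.75 to 550.3 ± 57.8. ELP3 and ELP4, of the Elongator complex that modifies wobble uridines, fell to 368.0 ± 20.5 and 113.6 ± 6.12 from 544.3 ± 13.3 and 192.4 ± 17.6. In the short lists, to be read beside the same shares of all tested genes, both directions occurred. Of the 4 genes that finish glutaminyl- and formylmethionyl-tRNA in mitochondria GATC was higher and GATB lower. Both encode subunits of the amidotransferase that completes mitochondrial glutaminyl-tRNA, and GATC was at 324.2 ± 12.7 against 263.1 ± 8.14 in DMSO and GATB at 170.1 ± 12.4 against 282.1 ± 4.16. Of 3 proofreading enzymes DTD1, which removes D-amino acids from tRNA, fell. Of 4 genes for selenocysteine 3 fell, EEFSEC and SECISBP2 first by adjusted p. Among 3 genes of uncharged tRNA sensing GCN1 rose from 4140 ± 268 to 4831 ± 218 and IMPACT, which restrains that sensing, fell from 476.9 ± 33.1 to 266.2 ± 12.1. The third, EIF2AK4, did not pass, at 1525 ± 77.2 in DMSO and 1378 ± 60.5 in PhenDC3 (limma, log2 fold change -0.15, adjusted p = 0.0655). Its libraries did not overlap between the groups.

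**Figure D4:**
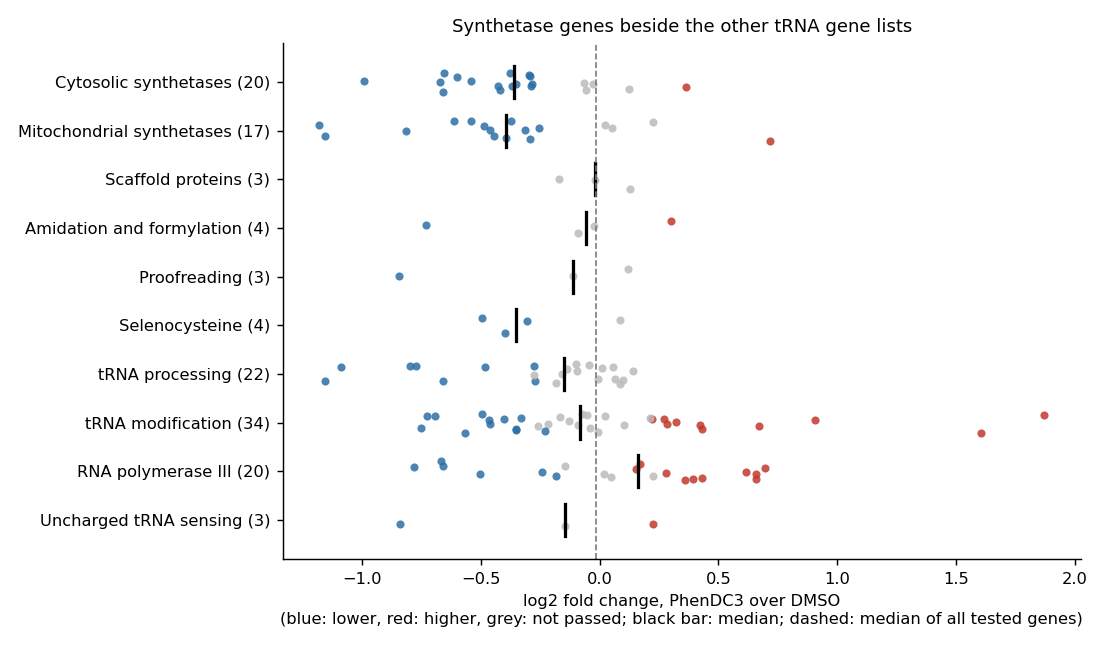
Log2 fold change of PhenDC3 over DMSO (x axis) for each gene of the synthetase groups and of 7 other tRNA gene lists (y axis, number of genes in brackets), in blue where lower, red where higher and grey where limma's test was not passed. Black bars are medians, at -0.36 for cytosolic and -0.39 for mitochondrial synthetases and 0.16 for RNA polymerase III, and the dashed line is the median of all tested genes.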

How the data were processed

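Total RNA was extracted with TRIzol and made into stranded mRNA libraries, per the labels' protocols. The submitters' processing notes name STAR 2.7, TopHat2 2.0.11, DESeq2 1.18.1, Cuffdiff, featureCounts, CASAVA, Cufflinks 2.2.1 and the build hg19, without their roles. The table holds signal values that the authors deposited already scaled: in each library 100% of them were whole multiples of what 1 read is worth (relative tolerance 1e-06), so they are read counts over a library-wide size factor. It also holds the authors' log2 fold change and their adjusted p-value, per the file headers.

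From these values, log2(value + 1) was fitted with limma 3.58.1 (R 4.3.3, variance trend) over the 16482 genes with a mean of 5 or more. Calls were made at 0.05 after Benjamini-Hochberg adjustment over them all. Fold changes are on that scale, which understates those of low genes. Alternatives were edgeR 4.0.16 and DESeq2 1.42.0 fitted to the recovered reads, where edgeR called 9437 of 14984 genes, other pseudocounts, filters and scalings, and leaving out each library. On simulated data the fit recovered 40.3% of 1.5-fold, 79.1% of 2-fold and 93.9% of 4-fold changes, with 10 false calls among 152. Far fewer genes were changed in that simulation than were called in these data. Its spread among libraries was set beforehand, alike for all genes, and not estimated from these data. The shares recovered may therefore not hold for these data. Members, lists and tests were chosen with earlier results of these data known. Members are named, and of each tRNA list up to 2 called genes a direction, by smallest adjusted p; 1 member and 1 list gene enter the counts and are not reported singly here. Promoter sequences are RefSeq's. GENCODE 29 on GRCh38 gave lengths, overlaps and neighbours, which may differ from those in the authors' build. Python 3.11.15 made the tables and figures.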

Additional observations from a re-analysis of the deposited data

How the results depend on the processing

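The 28 lower members numbered 25 to 28 when 1 library was left out, and the 2 higher members 2 to 4, the added ones, without DMSO replicate 3, being FARSA and AIMP1. In the same fits cytosolic genes higher numbered 1 to 2 and scaffold genes higher 0 to 1. Requiring 1.5-fold, which by construction drops smaller changes, left 9 members lower and 1 higher, 5 cytosolic genes lower and 0 higher, 4 mitochondrial genes lower, and 14 lower and 8 higher in the other tRNA lists. Under the other settings 25 to 28 members were lower (25 with DESeq2 and in the authors' deposited table, 27 with no variance trend and at an adjusted p under 0.01) and 2 higher. No member changed direction with a call. Of member values 232 of 240 kept their side of the threshold with 1 library left out and 472 of 480 under 12 other settings, the exceptions being named with the results. Rescaling by TMM or by the total outside the mitochondrial genome left 28 lower and 2 higher. With the replicate number as a block 28 members were lower and 2 higher, and 10155 genes were called in all against 9818. Correlations of same-numbered residuals were 0.00788, 0.0712 and 0.027, so the numbers were not taken as pairing the libraries. SARS2, PARS2 and FARS2, the members with the lowest counts, are where depth limits the precision most.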

Other observations

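A cytosolic threonine synthetase-like gene with a symbol outside the rule, TARSL2, was listed at 130.7, 134.5 and 148.9 normalized counts in DMSO and 162.1, 169.7 and 144.3 in PhenDC3. The groups overlapped (limma, log2 fold change 0.20, 95% interval -0.04 to 0.44, adjusted p = 0.14), while TARS, of which it is a relative, fell.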
